A study of Mus musculus with 34 samples.

Results

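The genes described here form the unfolded protein response and chaperone system of the endoplasmic reticulum (ER), the compartment in which secreted and membrane proteins are folded. The 32 members were taken by gene symbol from the count table of the Gprc5a knockout mice, and all 32 were present among its 24223 rows. The rule used no measured value, but the list was chosen with earlier results of these data known. Of these, 11 encode chaperones and their helpers, 4 disulfide isomerases, 1 a translocon subunit, 4 stress sensors, 3 transcription factors, 5 parts of ER-associated degradation (ERAD) and 4 targets of the integrated stress response. All 32 passed the filter on low counts and were tested among 14847 genes.

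When unfolded chains accumulate in the ER lumen, the chaperone BiP leaves the membrane sensors IRE1, PERK and ATF6. IRE1 splices Xbp1 messenger RNA, ATF6 is cut in the Golgi to free a transcription factor, and PERK phosphorylates the initiation factor eIF2, which slows translation but lets ATF4 be made. The resulting factors raise chaperones, ERAD components and amino acid enzymes, and in secretory airway cells, which export mucins and secretoglobins in bulk, parts of this machinery run without injury.

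The samples were tracheal epithelium brushed from mice, 1 mouse per library, and read as bulk poly-A RNA. All 28 mice of the knockout table are labelled Gprc5a-/-, a germline deletion of the gene that encodes a membrane receptor of lung epithelium that acts against tumours, so the label of the unexposed controls carries the deletion too. They were sampled before exposure (baseline, n = 6), at the end of 8 weeks of the tobacco nitrosamine NNK given into the peritoneum at 50 mg/kg 3 times a week (t0, n = 6), and 2 months (t2, n = 5), 4 months (t4, n = 6) and 6 months (t6, n = 5) after it, the last being when lung adenocarcinomas develop. A further 6 unexposed wild-type libraries were deposited in separately made tables. The labels give the age as 6 to 8 weeks for every group, no age-matched unexposed mice enter the comparisons, and age and time after exposure cannot be told apart.

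Knockout libraries held 15625276 to 37609816 estimated counts. Gprc5a had at most 49 counts in 27 knockout libraries and 238 in the library labelled t2 339, which also had the fewest genes above 0 of its group (14475). That Gprc5a count puts the genotype label of this library, 1 of 5 at t2, in doubt. Without it 12 members rose and 0 fell at t2 against baseline, as with it, and from t2 to t6 0 rose and 10 fell. From t0 to t2 11 rose instead of 13, since Hsp90b1 (adjusted p = 0.086) and Manf (0.09) no longer passed. From t2 to t6 Manf (0.082) was replaced by Trib3 (-1.71, adjusted p = 0.0093). The other comparisons hold it only in the shared fit, and without it 12 members passed at t4 against baseline instead of 8, and 4 at t6 instead of 2. Haemoglobin transcripts made up 22.8% of the counts of t0 357, 25.5% of t4 371 and 15.3% of t6 349, and the ribosomal precursor Rn45s 14.8% of t6 365. These 5 libraries were also left out together as a check. Airway markers fitted the labelled tissue: 10 of 10 club cell and 10 of 10 ciliated cell markers were above 0 in every group, with summed levels at baseline of 68732 to 100200.0 and 4082 to 5074 CPM (counts scaled to a common library size, using the trimmed mean of M values, TMM). At t0 the same sums were 19084 to 32182 and 1317 to 3131 CPM. In bulk RNA, fewer cells of a type and less RNA per cell cannot be told apart, which bears on every comparison below.

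Levels of different genes can be compared only per length, as the length-corrected TPM of the wild-type tables allow. In unexposed wild-type airway the lumenal folding enzymes stood highest: the disulfide isomerase P4hb averaged 358 ± 86.5 TPM (SD, n = 6), the lectin chaperone Calr 229 ± 56.9, BiP (Hspa5) 189 ± 75.9 and the ER-resident Hsp90 Hsp90b1 178 ± 57.6. Herpud1, an ERAD scaffold, stood at 169 ± 54.9 and Xbp1 at 114 ± 47.3 TPM, both ahead of the other ERAD and regulatory members. The sensors were lower, with Ern2 (IRE1 beta) at 25.3 ± 5.29, Atf6 at 10.6 ± 3.13, Eif2ak3 (PERK) at 7.93 ± 2.97 and Ern1 (IRE1 alpha) at 5.34 ± 3.14 TPM. Chac1 and Trib3, targets of ATF4, were the lowest at 1.39 ± 1.31 and 1.05 ± 1.26 TPM, each with 1 library listed at 0. Most neighbours in this order differed by less than their SD, and P4hb stood above Calr by more than it. In animal 289, however, P4hb (203 TPM) was below Calr (266), Hsp90b1 (265), Sec61b (228) and Pdia3 (209). In the other 5 animals P4hb was the highest member. Edem1 rested on a single library, with 61.6 TPM in animal 289 and 3.22 to 15.02 in the other 5. No test was run between genotypes, because the tables were made by different pipelines.

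**Figure D1:**
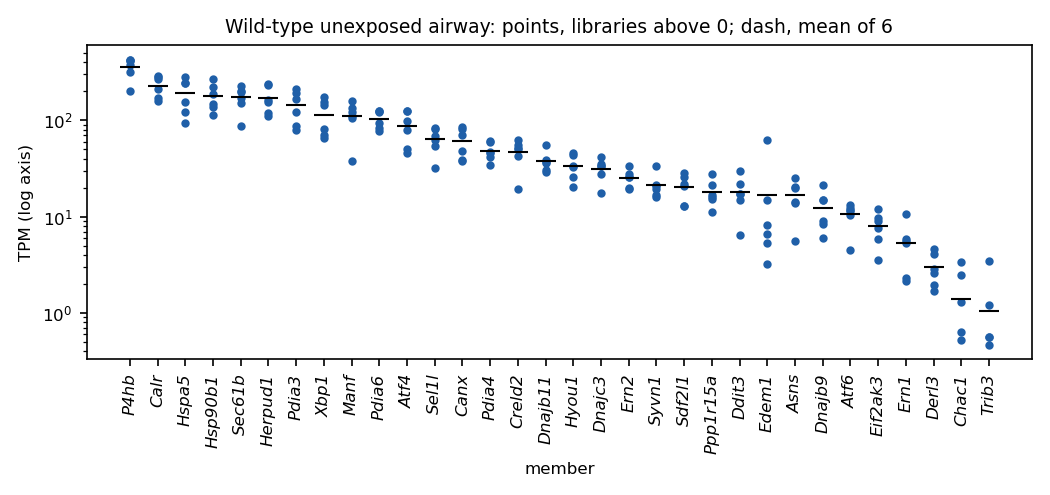
TPM of each of the 32 members in the 6 unexposed wild-type libraries on a log axis, ordered by the mean; points are libraries above 0 and dashes are means. P4hb is highest at 358 TPM and Trib3 lowest at 1.05 TPM, and the spread between libraries is wide beside the gaps between neighbours.

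Across the 5 knockout groups, 21 of 32 members differed in an F test (edgeR's quasi-likelihood test with Benjamini-Hochberg adjustment over all genes, threshold 0.05), against 56.8% of all genes tested. Against baseline the balance of rises and falls changed with time. At t0 7 members rose and 5 fell, while 45.5% of all genes changed (23.3% higher, 22.3% lower), so the members' shares of 21.9% higher and 15.6% lower lay under the background. With library totals in place of TMM the same comparison gave 10 rises and 3 falls, and the median of all genes shifted from 0.02 to 0.19. At t2 12 rose and 0 fell, with 19.9% of all genes changed (11.2% higher, 8.73% lower). At t4 7 rose and 1 fell, with 19.6% of all genes changed (10% higher, 9.56% lower). At t6 0 rose and 2 fell, with 8.83% of all genes changed (4.54% higher, 4.29% lower). Libraries of the compared groups did not overlap for 5 members at t0 (25.8% of all genes), 9 at t2 (11.9%), 7 at t4 (13%) and 0 at t6 (9.39%). 2 of the 7 at t4, Herpud1 and Trib3, did not pass the test. The median log2 fold change of the members at t0, t2, t4 and t6 was -0.02, 0.33, 0.25 and -0.17, beside 0.02, 0.02, 0.01 and -0.01 over all genes. These 4 comparisons share the baseline libraries, and every member below is given with its own values.

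**Figure D2:**
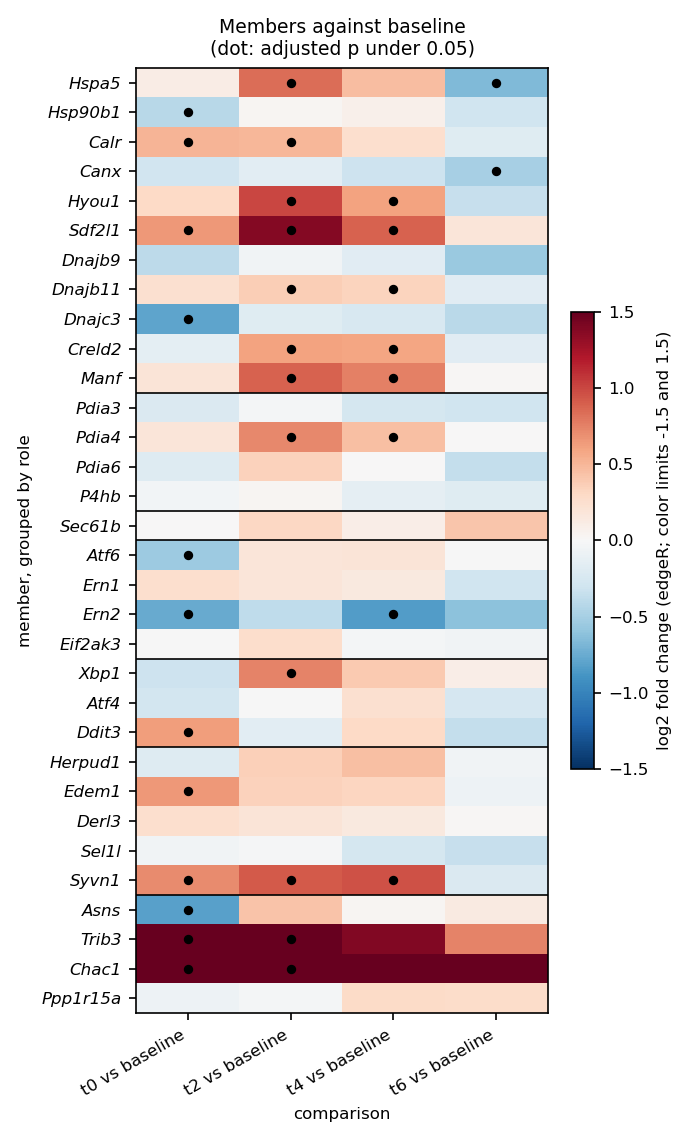
Log2 fold changes of the 32 members against baseline at t0, t2, t4 and t6 (columns), with members in rows grouped by role and a dot where the adjusted p was under 0.05. The block of chaperones at the top is mixed at t0, mostly higher at t2 and t4, and mostly lower at t6, where only Hspa5 and Canx carry a dot.

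Chaperones and isomerases carried most of the rise at t2. Of these 15 members 2 rose and 2 fell at t0, smaller shares than the 23.3% of all genes higher and 22.3% lower. Later counts were 8 rises with 0 falls (t2), 6 rises with 0 falls (t4), then 0 rises with 2 falls (t6). Of all genes 11.2% were higher and 8.73% lower (t2), 10% higher with 9.56% lower (t4), then 4.54% higher with 4.29% lower (t6). In time order the 15 members had median log2 fold changes of -0.04, 0.37, 0.25 and -0.30. Many of these genes share a promoter element, the ER stress response element (ERSE), which was originally defined in promoters such as that of Hspa5, so its presence there is background and not a finding. The element was searched as CCAAT and CCACG 9 bases apart, on both strands, in the 250 bases before the gene start (RefSeq promoters, build GRCm38.p6). It was found in 9 of the 28 members with a RefSeq promoter (32.14%) and in 35 of 27025 genes (0.13%). Hyou1, Manf, Atf6 and Ern2 had no entry. The 10 matched sites are shown so that the shared ends and the variable spacer can be read side by side, each 5′ to 3′ in the direction of CCAAT, with the searched letters in capitals.

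Hspa5 (chr2:34772025-34772043): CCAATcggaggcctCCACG
Hsp90b1 (chr10:86705638-86705656): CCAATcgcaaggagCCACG
Hsp90b1 (chr10:86705533-86705551): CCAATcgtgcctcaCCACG
Calr (chr8:84847075-84847093): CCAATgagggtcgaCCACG
Canx (chr11:50325800-50325818): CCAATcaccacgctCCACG
Dnajc3 (chr14:118937827-118937845): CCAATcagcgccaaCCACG
Creld2 (chr15:88819520-88819538): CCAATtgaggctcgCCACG
Pdia6 (chr12:17266491-17266509): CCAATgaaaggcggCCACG
Derl3 (chr10:75893242-75893260): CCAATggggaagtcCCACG
Syvn1 (chr19:6046532-6046550): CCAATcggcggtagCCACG

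The 9 spacer bases differed between all 10 sites, and the sites lay between 26 and 212 bases before the gene start. In Calr, Creld2, Derl3 and the second Hsp90b1 site the element was on the strand opposite to the gene. Of the 9 members with the element, 4 rose at t2 against baseline (Hspa5, Calr, Creld2 and Syvn1). Of the 17 members with none of the searched motifs 5 did, beside 11.2% of all genes. The search took exact letters in a fixed stretch before the gene start, so sites with other letters or further away were not counted. The shares with and without the element were not tested against each other. Canx, Hsp90b1 and Dnajc3 carry the element and fell in another comparison with baseline, and so did Hspa5, at t6. Pdia6 and Derl3 carry it and passed in no comparison with baseline. A match is a description of letters and no measure of binding. Further searches were for ERSE-II (ATTGG and CCACG 1 base apart), the UPR element TGACGTGG and the ATF4-type element TTGCATCA: Herpud1 held an ERSE-II site, which 0.037% of all genes did, 0 members held the UPR element (0.603% of all genes) and Herpud1 and Chac1 held TTGCATCA (0.918%). The full windows of the members with a match that passed in the most comparisons are given on the strand of the gene and with the whole element, spacer included, in capitals, so that Calr and Creld2 show its reverse complement.

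Hspa5 (chr2:34771840-34772089): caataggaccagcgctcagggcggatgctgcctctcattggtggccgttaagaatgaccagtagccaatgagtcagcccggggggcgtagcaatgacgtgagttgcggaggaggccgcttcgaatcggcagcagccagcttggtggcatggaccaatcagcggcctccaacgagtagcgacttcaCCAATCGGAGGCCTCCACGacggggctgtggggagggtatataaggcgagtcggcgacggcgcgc
Calr (chr8:84846932-84847181): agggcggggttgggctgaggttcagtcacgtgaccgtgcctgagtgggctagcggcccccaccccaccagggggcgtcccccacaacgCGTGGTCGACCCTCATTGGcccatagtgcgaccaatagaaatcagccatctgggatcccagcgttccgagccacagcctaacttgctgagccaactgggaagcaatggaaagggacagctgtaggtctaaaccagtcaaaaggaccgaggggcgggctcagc
Creld2 (chr15:88819396-88819645): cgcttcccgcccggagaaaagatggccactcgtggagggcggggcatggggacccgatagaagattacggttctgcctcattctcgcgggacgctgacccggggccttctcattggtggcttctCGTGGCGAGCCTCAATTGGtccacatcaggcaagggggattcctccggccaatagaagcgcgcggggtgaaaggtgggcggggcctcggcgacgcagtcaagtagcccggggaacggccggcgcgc
Syvn1 (chr19:6046326-6046575): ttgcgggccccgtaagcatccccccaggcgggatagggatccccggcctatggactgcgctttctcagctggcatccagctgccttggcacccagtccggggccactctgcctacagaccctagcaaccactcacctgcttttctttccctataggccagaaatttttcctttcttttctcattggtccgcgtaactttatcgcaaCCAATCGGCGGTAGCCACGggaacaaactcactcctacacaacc

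The capitals lie 65 to 47 bases before the gene start in Hspa5, 162 to 144 in Calr, 126 to 108 in Creld2 and 44 to 26 in Syvn1.

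Per-library values below are given for baseline, t0 and t4 as the lowest, highest and median library, and for t2 and t6 as every library, in the order of animals 334, 339, 347, 358 and 360 and of 341, 349, 365, 366 and 368. Fold changes are on the log2 scale with their SE, and adjusted p-values are from edgeR's quasi-likelihood test. Gene coordinates are those of the count table, in build mm10. Hspa5 (chromosome 2, 34772090 to 34776530) encodes BiP, the Hsp70 chaperone of the ER. Its levels were 457 to 778 CPM (median 571) at baseline, 517 to 736 CPM (median 637) at t0 and 552 to 1228 CPM (median 719) at t4. The t2 libraries held 1181, 872, 1034, 1316 and 885 CPM, and the t6 libraries 323, 396, 488, 356 and 305 CPM. Each t2 library thus lay above every baseline library, 4 of 5 t6 libraries lay below them all, and t4 was the most scattered group, with 336 and 371 high. The change was 0.84 ± 0.18, adjusted p = 0.0019 at t2, and -0.66 ± 0.18, adjusted p = 0.019 at t6. At t0 it was 0.11 ± 0.17, adjusted p = 0.64, and at t4 0.47 ± 0.17, adjusted p = 0.051, which did not pass here but did in 10 of 35 alternatives. The t6 fall rested on single libraries: adjusted p was 0.058 without baseline 356 and 0.055 without t6 341.

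Hyou1 (chromosome 9, 44379490 to 44392370), the nucleotide exchange factor that recharges BiP, moved with a similar shape. It measured 103 to 174 CPM (median 137) at baseline, 144 to 201 CPM (median 170.2) at t0 and 176 to 277 CPM (median 183) at t4. Values were 294, 254, 229.5, 376 and 224 CPM in the t2 libraries and 92.9, 124, 110.5, 114 and 98.9 CPM in the t6 libraries. At t2 and t4 no library overlapped with baseline, and at t6 3 libraries lay inside the baseline range and 2 under it. The change was 1.00 ± 0.16, adjusted p = 0.00012 at t2, 0.60 ± 0.15, adjusted p = 0.0066 at t4 and -0.34 ± 0.16, adjusted p = 0.19 at t6. Sdf2l1 (chromosome 16, 17130138 to 17132384), which works with the BiP helper Dnajb11 to keep clients soluble, gave the largest fold change against baseline among the folding members. It measured 20.2 to 33.5 CPM (median 29.98) at baseline, 30.8 to 60.2 CPM (median 43.2) at t0 and 35.6 to 79.6 CPM (median 50.5) at t4. In the t2 libraries it held 80.8, 58.6, 75.9, 78.8 and 78.3 CPM and in the t6 libraries 26.9, 29.7, 41.3, 41.1 and 23.6 CPM. All t2 and all t4 libraries exceeded the baseline range, while t0 overlapped with it in 1 library and 2 of the t6 libraries stood above it. Sdf2l1 rose at t0 (0.65 ± 0.19, adjusted p = 0.0051), at t2 (1.37 ± 0.19, adjusted p = 3.7e-05) and again at t4 (0.88 ± 0.19, adjusted p = 0.0016). The t6 value was 0.18 ± 0.19, adjusted p = 0.64.

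Dnajb11 (chromosome 16, 22857845 to 22872466), an Hsp40 partner that hands clients to BiP, rose less. It measured 50.8 to 68.2 CPM (median 64.3) at baseline, 62.5 to 83.7 CPM (median 72.5) at t0 and 68.6 to 91.96 CPM (median 76.6) at t4. The t2 libraries held 67.9, 85.9, 75.97, 88.9 and 84.7 CPM and the t6 libraries 56.5, 65.6, 62.4, 50.5 and 44.00 CPM. At t4 no library overlapped with baseline, by a narrow margin, and at t2 1 library did. The rise was 0.36 ± 0.11, adjusted p = 0.023 at t2 and 0.34 ± 0.11, adjusted p = 0.028 at t4. Single libraries decided both: at t2 adjusted p was 0.058 without baseline 344 and 0.059 without t2 358. At t4 it was 0.051 without baseline 343, 0.074 without baseline 344, 0.062 without t4 336, 0.071 without t4 371 and 0.052 with no filter on low counts.

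Creld2 (chromosome 15, 88819646 to 88826682), a secreted ER protein induced by stress, measured 50.1 to 77.3 CPM (median 65.8) at baseline, 51.6 to 60.3 CPM (median 58.6) at t0 and 82.3 to 127 CPM (median 89.9) at t4. The t2 libraries gave 85.7, 100., 86.1, 116 and 95.5 CPM, and those of t6 51.7, 63.4, 69.4, 53.4 and 46.4 CPM. Both t2 and t4 stood clear of baseline, and t0 was the tightest group. The rise was 0.60 ± 0.13, adjusted p = 0.0019 at t2 and 0.60 ± 0.12, adjusted p = 0.0013 at t4, and it passed in every alternative run for these comparisons. Manf (chromosome 9, 106887415 to 106891939), a BiP-binding factor that is also secreted, measured 70.2 to 130.1 CPM (median 100.3) at baseline, 88.2 to 134 CPM (median 112) at t0 and 106 to 260.1 CPM (median 147) at t4. For Manf the t2 libraries held 156, 235, 139, 233 and 141 CPM and the t6 libraries 109, 104, 151, 86.8 and 44.2 CPM. All t2 libraries lay above all baseline libraries, 339 and 358 well above the other 3, and t6 368 was below every other library. The rise was 0.89 ± 0.24, adjusted p = 0.012 at t2 and 0.76 ± 0.23, adjusted p = 0.023 at t4, where adjusted p became 0.057 without baseline 343, 0.055 without baseline 344, 0.051 without t4 336 and 0.075 without t4 371.

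The lectin chaperones of the glycoprotein folding cycle did not move together. Calr (chromosome 8, 84842088 to 84846932), the lumenal form, measured 398 to 663 CPM (median 618) at baseline, 662 to 911 CPM (median 798) at t0 and 582 to 829.9 CPM (median 651) at t4. By library, t2 held 797, 707, 815, 941 and 736 CPM and t6 473, 435, 485, 416 and 693 CPM. Within baseline, 343 (443 CPM) and 344 (398 CPM) were low, all t2 libraries lay above the baseline range, and t0 touched it in 1 library. Calr rose at t0 (0.51 ± 0.14, adjusted p = 0.0042) and at t2 (0.50 ± 0.15, adjusted p = 0.019), the latter lost without baseline 343 (adjusted p = 0.053) or t2 358 (0.057). Canx (chromosome 11, 50293957 to 50325674), the membrane-bound form, measured 210.3 to 285 CPM (median 253) at baseline, 159 to 259.7 CPM (median 202) at t0 and 163 to 241 CPM (median 197) at t4. Its t2 libraries held 229, 230.3, 214, 270.0 and 174 CPM and its t6 libraries 188, 157, 142, 136 and 257 CPM. At t6 4 libraries were under every baseline library and 368 was inside the range. Canx fell at t6 (-0.50 ± 0.15, adjusted p = 0.037), but the call ended in 11 of 35 alternatives, 8 of them with 1 library left out. Adjusted p was 0.06 without baseline 344, 0.058 without 345, 0.064 without 352 and 0.084 without 356. It was 0.054 without t6 341, 0.099 without 349, 0.11 without 365 and 0.11 without 366. It was 0.26 with library totals in place of TMM, 0.076 with only the groups compared and 0.33 without the 5 libraries named above, where the value was -0.32.

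Other members of the folding group fell at t0. Dnajc3 (chromosome 14, 118937932 to 118981703), a BiP helper that also restrains PERK, measured 199.9 to 257 CPM (median 227) at baseline, 106 to 167 CPM (median 125) at t0 and 141 to 225 CPM (median 202) at t4. Values were 209.7, 183, 201, 225 and 184 CPM in the t2 libraries and 169, 144, 177, 168 and 206 CPM in the t6 libraries. All t0 libraries lay under all baseline libraries. The fall at t0 was -0.80 ± 0.13, adjusted p = 1.1e-05, and at t6 the value was -0.40 ± 0.13, adjusted p = 0.055, which passed in 6 of 35 alternatives. Hsp90b1 (chromosome 10, 86690841 to 86705445), the ER Hsp90, measured 445 to 777 CPM (median 538) at baseline, 347 to 480.0 CPM (median 422) at t0 and 469 to 691 CPM (median 591) at t4. Its t2 libraries held 481, 634, 605, 597 and 528 CPM and its t6 libraries 477, 389.8, 375, 351 and 688 CPM, with 368 high. The groups overlapped, and the fall at t0 was -0.42 ± 0.16, adjusted p = 0.03. It was lost without baseline 352 (adjusted p = 0.052) or 356 (0.11), without t0 357 (0.068), 367 (0.072) or 375 (0.058), without the 5 libraries together (0.058) and with library totals (-0.22, adjusted p = 0.38). Hsp90b1 also shares 415 exon bases with the opposite-strand gene 1810014B01Rik, and the strand used in counting is not given in the sources used here. Dnajb9, an Hsp40 helper that also restrains IRE1, passed in no comparison and ranged from 12.9 to 42.7 CPM over the 28 libraries.

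Among the disulfide isomerases, which form and reshuffle bonds between cysteines, Pdia4 (chromosome 6, 47796141 to 47813513) rose. It measured 97.2 to 157 CPM (median 131) at baseline, 117 to 163 CPM (median 153) at t0 and 141 to 219 CPM (median 173) at t4. The t2 libraries gave 205, 206, 215, 239 and 197 CPM, and those of t6 117, 115, 145, 136 and 136 CPM. Every t2 library was above every baseline library, and t4 overlapped. The rise was 0.72 ± 0.13, adjusted p = 0.00052 at t2 and 0.45 ± 0.12, adjusted p = 0.011 at t4. Pdia6 (chromosome 12, 17266595 to 17284771) did not pass against baseline at any time, with values in time order of -0.20, 0.35, 0.01 and -0.36, but its 5 t2 libraries all lay above all t0 libraries (0.55 ± 0.14, adjusted p = 0.0041). Pdia3, of the lectin cycle, ranged from 268 to 570.2 CPM and P4hb from 516 to 1066 CPM over the 28 libraries, and neither passed in any comparison. Sec61b, a subunit of the channel that admits new chains, ranged from 58.5 to 142 CPM and passed in none.

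**Figure D3:**
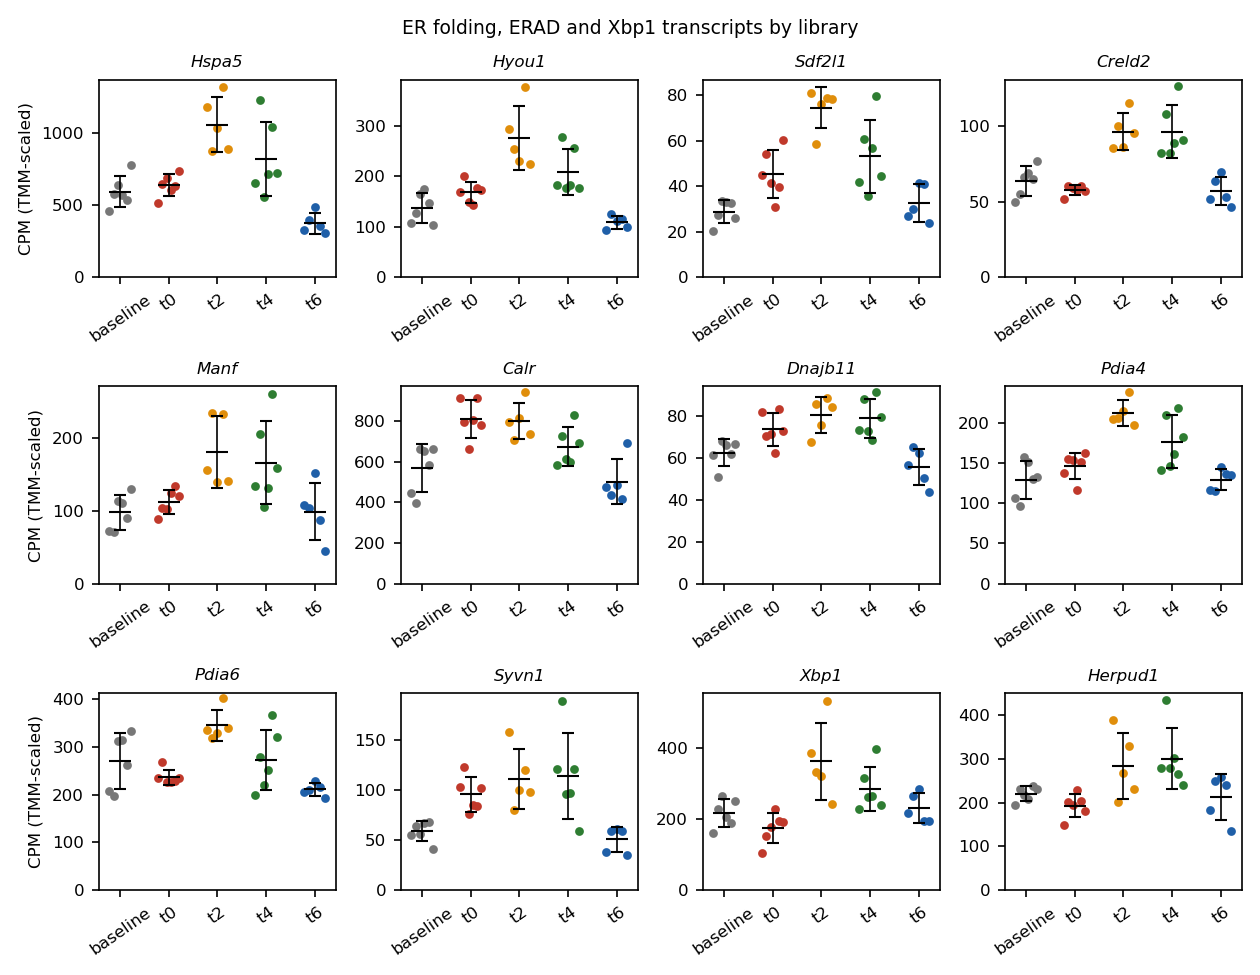
TMM-scaled CPM of 12 members by group; each point is a library, bars are the group mean and SD. For Hspa5, Hyou1, Sdf2l1, Creld2 and Pdia4 the t2 points lie above all baseline points, and for Hspa5 most t6 points lie below them.

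Seen by library, the median over the folding members separated t2 from t6. For each library the median log2 difference from the baseline mean, on log2(CPM + 1), was taken over the 16 chaperone, isomerase and translocon members. It was -0.29 to 0.21 in the 6 baseline libraries, -0.12 to 0.11 at t0 and 0.30 to 0.68 at t2. The t4 libraries spanned -0.02 to 0.51 and the t6 libraries -0.29 to -0.20. Library t2 358 was the highest of all at 0.68, with 15 of 16 members above their baseline mean. At t4 the libraries were spread, with 336 at 0.41 and 371 at 0.51 but 335 at 0.02 and 340 at -0.02. Of the baseline libraries, 343 at -0.29 lay within the range of t6 and the other 5 lay above it. The median does not speak for each member. Of the 15 chaperones and isomerases 9 fell from t2 to t6, beside 3.86% of all genes, and Sec61b did not pass (0.10).

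**Figure D4:**
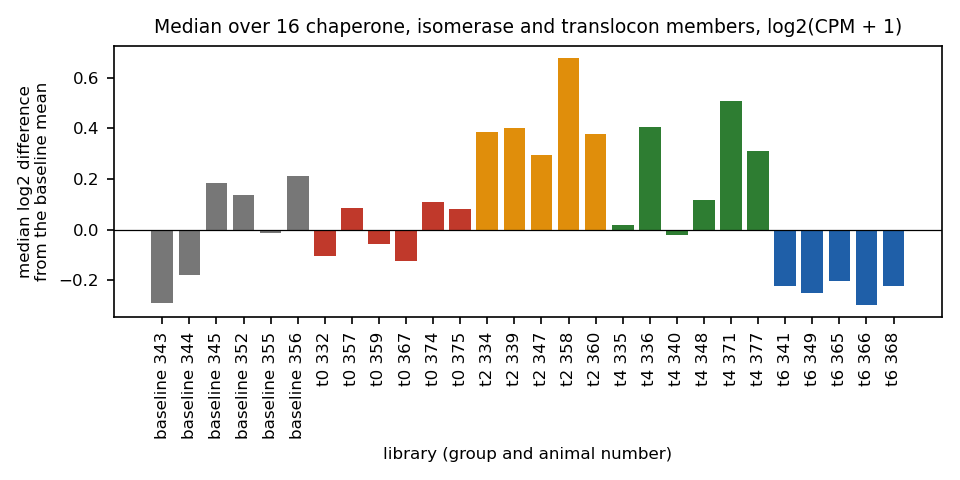
Median log2 difference from the baseline mean over 16 chaperone, isomerase and translocon members, 1 bar per library, colored by group. All 5 t2 bars are above 0 (0.30 to 0.68), all 5 t6 bars are below 0 (-0.29 to -0.20), and t4 spans -0.02 to 0.51.

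Beside the rise at t2, markers of other cell types also moved. Of 6 tested submucosal gland markers 4 rose (Tcn2, Ltf, Dmbt1 and Wfdc18) and 1 fell (Azgp1), and their summed level was 6386 to 17961 CPM at baseline and 16350.0 to 30075 at t2. All 9 skeletal muscle markers rose at t2, with sums of 1.89 to 11.5 CPM at baseline and 119 to 1665 at t2, and all 9 also rose at t6. Of the 8 tested markers of plasma and B cells, which secrete antibody through this pathway, 0 passed at t2 and 3 rose at t4 and 4 at t6. Their sums were 402 to 511 CPM at baseline, 458 to 699.8 at t2, 402 to 561 at t4 and 405 to 527 at t6. Club cell markers fell (5 of 10) and basal cell markers rose (5 of 8) at t2, while 1 of 10 goblet, 1 of 10 ciliated and 2 of 10 macrophage markers rose. Beside the rise at t4, 8 of 9 muscle, 3 of 8 basal, 3 of 10 macrophage, 1 of 6 gland, 1 of 10 ciliated, 1 of 8 T and NK cell and 1 of 8 erythroid markers rose. There 8 of 10 club, 2 of 10 goblet and 1 of 8 basal markers fell. The part of these cells in the results was not tested.

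The sensors did not rise against baseline at any time. Atf6 (chromosome 1, 170704457 to 170867772), the sensor that becomes a transcription factor, measured 98.8 to 114 CPM (median 106) at baseline, 65.1 to 94.7 CPM (median 69.5) at t0 and 110.1 to 140.1 CPM (median 119) at t4. By library, t2 held 104, 124, 144, 113 and 117 CPM and t6 122, 103, 92.6, 100.3 and 109 CPM. All t0 libraries lay under all baseline libraries, with 359 nearest to them. It fell at t0 (-0.55 ± 0.10, adjusted p = 6.7e-05), but with library totals the value was -0.36 and did not pass (adjusted p = 0.08). Ern2 (chromosome 7, 122169893 to 122186217), the IRE1 form of mucus-making epithelia, measured 50.4 to 87.00 CPM (median 67.1) at baseline, 19.7 to 53.2 CPM (median 46.6) at t0 and 27.9 to 47.6 CPM (median 38.5) at t4. Its t2 libraries held 45.8, 61.03, 50.8, 46.7 and 60.9 CPM and its t6 libraries 34.2, 36.3, 41.6, 66.7 and 46.5 CPM. Every t4 library was under every baseline library, and at t0 and at t6 1 library or more lay in the baseline range. Ern2 fell at t0 (-0.76 ± 0.20, adjusted p = 0.0025) and t4 (-0.84 ± 0.20, adjusted p = 0.0037), and the values at t2 and t6 were -0.38 ± 0.21, adjusted p = 0.19 and -0.62 ± 0.21, adjusted p = 0.058, the latter passing in 7 of 35 alternatives. Goblet cell markers moved beside it at t0, where 6 of 10 fell and their sum was 1556 to 4639 CPM against 5151 to 11742 at baseline, and at t4 2 of 10 fell. The part of goblet cells in this result was not tested. Ern1, the widespread IRE1 form, ranged from 13.3 to 44.98 CPM over the 28 libraries, Eif2ak3, which encodes PERK, from 27.9 to 64.6 CPM, and neither passed in any comparison.

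Of the transcription factors, Xbp1 (chromosome 11, 5520641 to 5525994) is the factor that IRE1 activates by splicing, and gene-level counts do not separate its spliced form. It measured 160.2 to 265 CPM (median 217) at baseline, 105 to 228 CPM (median 185) at t0 and 228 to 397 CPM (median 264) at t4. Values were 387, 335, 322, 535 and 242 CPM in the t2 libraries and 217, 267, 286, 194 and 195 CPM in the t6 libraries. At t2 4 libraries exceeded the baseline range and 360 lay within it. The rise was 0.75 ± 0.19, adjusted p = 0.0075 at t2, and at t0 the value was -0.31 ± 0.18, adjusted p = 0.17. Ddit3 (chromosome 10, 127290793 to 127296289) encodes CHOP, a factor linked to cell death under lasting stress, and shares 68 exon bases with the opposite-strand gene Mars. It measured 9.90 to 14.1 CPM (median 13.5) at baseline, 16.5 to 25.8 CPM (median 17.98) at t0 and 10.9 to 24.8 CPM (median 13.2) at t4. The t2 libraries gave 13.3, 10.3, 9.60, 15.9 and 8.06 CPM, and those of t6 7.56, 12.1, 13.2, 7.89 and 9.39 CPM. All t0 libraries exceeded all baseline libraries, and the rise there was 0.62 ± 0.20, adjusted p = 0.014. At t2 the value was -0.16 ± 0.21, adjusted p = 0.62. Atf4, which is controlled mainly by translation, ranged from 126 to 369 CPM and passed in no comparison.

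ERAD returns misfolded proteins to the cytosol for destruction. Syvn1 (chromosome 19, 6046576 to 6053719), which encodes the ubiquitin ligase Hrd1 at its centre, rose at t0, t2 and t4. It measured 41.4 to 68.1 CPM (median 59.9) at baseline, 75.7 to 123 CPM (median 93.4) at t0 and 59.4 to 189 CPM (median 109) at t4. By library, t2 held 158, 79.9, 99.9, 119.5 and 97.8 CPM and t6 38.03, 59.1, 61.03, 59.1 and 35.4 CPM. The t0 and t2 groups stood clear of baseline, t4 overlapped through 377, and t6 lay within or under the baseline range. The rise was 0.70 ± 0.21, adjusted p = 0.0069 at t0, then 0.92 ± 0.22, adjusted p = 0.0041 (t2) and 0.96 ± 0.21, adjusted p = 0.0022 (t4), and t6 gave -0.21 ± 0.22, adjusted p = 0.61. Syvn1 shares 91 exon bases with the opposite-strand gene Mrpl49. Edem1 (chromosome 6, 108828641 to 108859357), which trims mannose from glycoproteins to mark them for ERAD, measured 35.2 to 52.8 CPM (median 38.1) at baseline, 45.4 to 99.6 CPM (median 60.8) at t0 and 41.8 to 69.5 CPM (median 49.8) at t4. Its t2 libraries held 60.9, 42.1, 45.6, 72.7 and 41.8 CPM and its t6 libraries 38.3, 35.5, 35.04, 39.05 and 47.5 CPM. It was highest at t0, where 4 of 6 libraries exceeded the baseline range and the rise was 0.65 ± 0.18, adjusted p = 0.0034. Herpud1 did not pass against baseline, though every t4 library, at 241 to 436 CPM (median 279), exceeded every baseline library, at 195 to 239 CPM (median 224). The value at t4 was 0.45 ± 0.16, adjusted p = 0.053, and it passed in 9 of 35 alternatives, among them library totals (0.028) and DESeq2 (0.025). Sel1l, the partner of Hrd1, ranged from 199.6 to 372 CPM and passed in none. Derl3 ranged from 0.0324 to 3.71 CPM and also passed in none, the lowest value being 1 count in t2 339.

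Targets of the integrated stress response, the ATF4 arm, went in opposite directions at t0. Trib3 (chromosome 2, 152337425 to 152344061), a pseudokinase that dampens this response, measured 0.509 to 0.936 CPM (median 0.707) at baseline, 1.14 to 3.69 CPM (median 2.82) at t0 and 1.18 to 3.46 CPM (median 1.44) at t4. Its t2 libraries held 5.67, 0, 3.37, 4.31 and 2.83 CPM, the 0 being t2 339, and its t6 libraries 1.05, 1.53, 0.924, 1.77 and 0.919 CPM. All t0 libraries and the other 4 of t2 exceeded the baseline range. The rise was 1.83 ± 0.58, adjusted p = 0.012 at t0 and 2.12 ± 0.60, adjusted p = 0.014 at t2, and on log2(CPM + 1) with limma 1.02 and 1.05. At t4 every library exceeded every baseline library, but the value of 1.38 ± 0.58 did not pass (adjusted p = 0.09). It passed with DESeq2 (0.04), with only the groups compared (0.0087), without the 5 libraries together (0.0046) and without t2 339 (0.0035). The t6 value was 0.74 ± 0.60, adjusted p = 0.5. Chac1 (chromosome 2, 119351242 to 119354328), which degrades glutathione, measured 0 to 1.66 CPM (median 1.02) at baseline, 1.55 to 9.53 CPM (median 3.17) at t0 and 1.66 to 6.57 CPM (median 2.18) at t4. Values were 8.44, 2.36, 3.89, 4.72 and 2.75 CPM in the t2 libraries and 1.48, 1.65, 2.65, 4.02 and 4.02 CPM in the t6 libraries. At t2 it stood clear of baseline and at t0 1 library overlapped. The rise was 2.26 ± 0.58, adjusted p = 0.0024 at t0 and 2.18 ± 0.60, adjusted p = 0.011 at t2, and on log2(CPM + 1) with limma 1.40 and 1.42. The t2 call was lost when only the groups compared were fitted (adjusted p = 0.056).

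Asns (chromosome 6, 7675171 to 7693183), the enzyme that makes asparagine, went the other way. It measured 16.5 to 34.5 CPM (median 28.8) at baseline, 10.3 to 20.1 CPM (median 16.01) at t0 and 21.6 to 38.3 CPM (median 27.9) at t4. The t2 libraries gave 38.7, 33.6, 48.7, 42.9 and 23.4 CPM, and those of t6 29.1, 25.7, 36.6, 36.4 and 25.2 CPM. The t0 libraries were under 5 of the 6 baseline libraries and overlapped through baseline 355. The fall at t0 was -0.82 ± 0.19, adjusted p = 0.0011, and at t2 the value was 0.42 ± 0.20, adjusted p = 0.13. Ppp1r15a, which reverses the phosphorylation of eIF2, ranged from 38.1 to 92.7 CPM and passed in no comparison. Beside all of the t0 changes, 9 of 10 club and 10 of 10 ciliated cell markers fell, and 9 of 10 macrophage, 6 of 8 T and NK cell, 6 of 8 basal cell, 4 of 8 plasma and B cell and 8 of 9 skeletal muscle markers rose. The remaining macrophage marker, Lyz2, fell, and the macrophage sum had a median of 3257 CPM at t0 and 4982 at baseline. Their part in the t0 results was not tested.

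**Figure D5:**
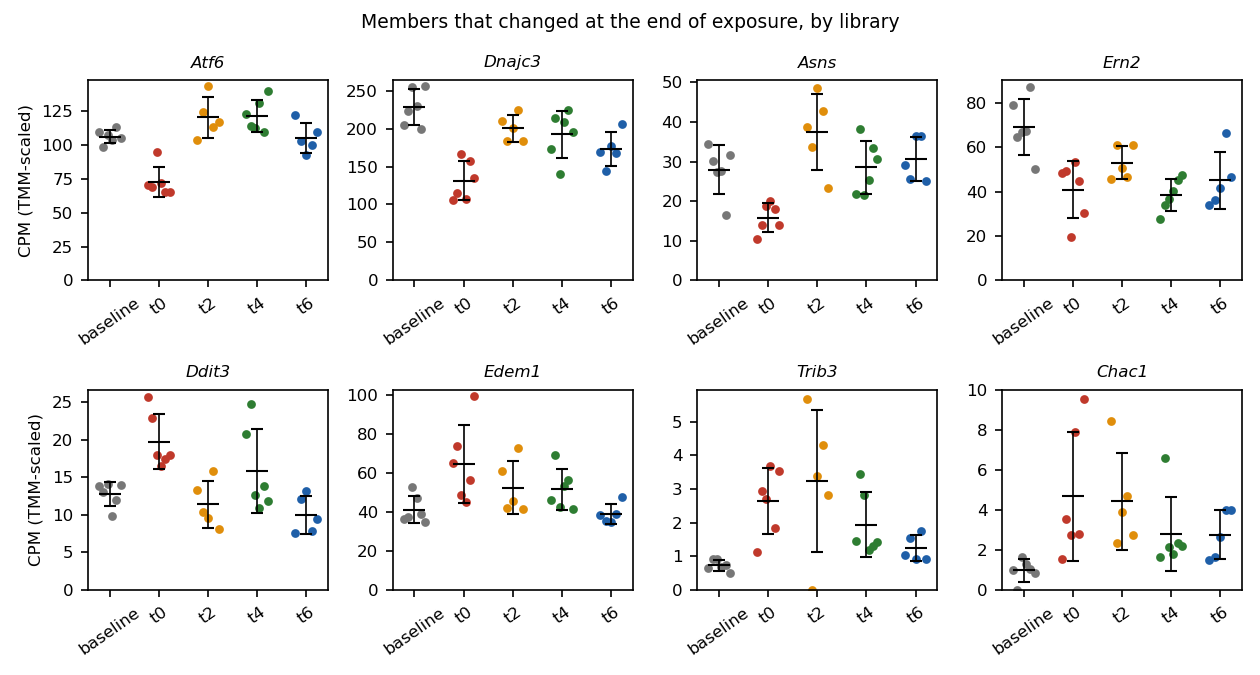
TMM-scaled CPM of 8 members by group; points are libraries, dashes and bars the group mean and SD. Atf6, Dnajc3, Asns and Ern2 were lower at t0, while Ddit3, Edem1, Trib3 and Chac1 were higher there.

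Comparisons among the exposed groups put these changes in order of time. From t0 to t2 13 members rose and 1 fell, while 29.9% of all genes changed (15.7% higher, 14.2% lower), and 12 did not overlap between the groups (12.7% of all genes). The largest rises were in Asns (1.24 ± 0.20, adjusted p = 3.1e-05), Xbp1 (1.06 ± 0.19, adjusted p = 0.00012) and Creld2 (0.74 ± 0.13, adjusted p = 5.6e-05). The member that fell was Ddit3 (-0.79 ± 0.22, adjusted p = 0.0062). Atf6 rose by 0.73 and Dnajc3 by 0.61, and Herpud1 rose by 0.55 but not without t2 334 (adjusted p = 0.077). Markers moved here too: 10 of 10 ciliated, 6 of 10 club and 4 of 10 goblet cell markers rose, and 9 of 10 macrophage, 7 of 8 T and NK cell, 4 of 8 basal and 1 of 8 plasma and B cell markers fell. Of the rest, 2 of 6 gland and 2 of 9 muscle markers rose and 1 of 10 club markers fell. The macrophage marker Lyz2 rose, and the macrophage sum went from a median of 3257 to 7561 CPM. Their part in the result was not tested.

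Between t2 and t4 0 of 32 members passed in edgeR, DESeq2 or limma, and 6 had an unadjusted p under 0.05 in edgeR, where 0% of all genes passed. Libraries did not overlap for 0 members (1.74% of all genes). From t2 to t6 10 members fell and 0 rose, while 5.64% of all genes changed (3.86% lower, 1.78% higher), and 9 did not overlap (6.25% of all genes). Hspa5 fell most (-1.501 ± 0.19, adjusted p = 0.0001), then Hyou1 (-1.35 ± 0.17, adjusted p = 0.0001), Sdf2l1 (-1.20 ± 0.20, adjusted p = 0.0027) and Syvn1 (-1.14 ± 0.23, adjusted p = 0.0069). Manf changed by -0.87, Creld2 by -0.76, Pdia4 by -0.71, Pdia6 by -0.71, Calr by -0.68 and Dnajb11 by -0.53. With only the t2 and t6 libraries in the fit 6 of 32 passed, and 46 of all genes against 838. The median over the members was -0.42, beside 0.01 over all genes. Of the 10 cell type marker lists, 1 of 6 gland and 1 of 10 ciliated markers fell and 1 of 8 plasma and B cell markers rose, and 0 passed in the other lists. The list medians were 2.13 (erythroid), 1.39 (plasma and B cells), 1.22 (T and NK cells), 0.63 (muscle), 0.152 (ciliated), 0.145 (macrophage) and 0.115 (goblet). Those of club, gland and basal markers were -0.03, -0.21 and -0.41. The part of these cells in the fall was not tested. From t0 to t6 3 members rose and 7 fell, while 38.7% of all genes changed (18.2% higher, 20.5% lower), and 5 did not overlap (23% of all genes). There 10 of 10 ciliated, 7 of 10 club, 7 of 10 goblet, 7 of 9 muscle, 2 of 6 gland and 1 of 10 macrophage markers rose. Of the same lists 7 of 8 basal, 7 of 10 macrophage, 3 of 8 T and NK cell, 2 of 8 plasma and B cell, 2 of 6 gland and 1 of 10 club markers fell, and their part in the result was not tested. The comparisons in this paragraph and the preceding one share libraries with each other and with those against baseline.

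Other genes of the pathway followed the members only in part. Against baseline, the shares of all genes higher and lower were 23.3% and 22.3% at t0 and 11.2% and 8.73% at t2. They were 10% and 9.56% at t4 and 4.54% and 4.29% at t6. Of 22 amino acid and tRNA synthetase targets of ATF4, 9 rose (40.9%) and 0 fell at t0, and 7 rose (31.8%) and 0 fell at t2. The numbers were 4 (18.2%) and 2 (9.09%) at t4 and 2 (9.09%) and 4 (18.2%) at t6. In time order the medians were 0.29, 0.25, 0.04 and -0.12. At t0 these were led by Sesn2 (1.54 ± 0.15, adjusted p = 7.8e-09) and Phgdh (1.96 ± 0.22, adjusted p = 1e-07), and at t2 by Shmt2 (0.89 ± 0.14, adjusted p = 0.00012) and Slc3a2 (0.81 ± 0.15, adjusted p = 0.00049). At t4 Cars (0.63 ± 0.14, adjusted p = 0.0024) and Shmt2 (0.48 ± 0.13, adjusted p = 0.014) led, and at t6 Tars (-0.64 ± 0.14, adjusted p = 0.0035) and Eprs (-0.68 ± 0.15, adjusted p = 0.0043). From t2 to t6 11 of the 22 (50%) fell and 0 rose, beside 3.86% of all genes lower and 1.78% higher.

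The 23 genes of the translocon, signal peptidase and oligosaccharyltransferase, which bring chains into the ER and attach sugars, had 0 rises against baseline. In time order 12, 1, 6 and 6 of them fell (52.2%, 4.35%, 26.1% and 26.1%), beside 22.3%, 8.73%, 9.56% and 4.29% of all genes. Their medians were -0.38, -0.05, -0.21 and -0.37. The smallest p-values at t0 were those of Sec63 (-0.63 ± 0.09, adjusted p = 2.5e-06) and Stt3b (-0.65 ± 0.12, adjusted p = 5.8e-05), and at t2 Sec62 (-0.66 ± 0.19, adjusted p = 0.015) fell. At t4 they were those of Stt3a (-0.44 ± 0.10, adjusted p = 0.0031) and Ssr1 (-0.57 ± 0.13, adjusted p = 0.0033), and at t6 Stt3a (-0.45 ± 0.11, adjusted p = 0.0063) and Tram1 (-0.59 ± 0.15, adjusted p = 0.011). Markers of secretory cells went both ways in the same samples. Of 10 club cell markers 9 fell and 1 rose at t0, 8 fell at t4 and 5 fell at both t2 and t6. Of 10 goblet markers 6 fell at t0 and 2 at t4, 1 rose at t2, and 1 rose and 1 fell at t6. Of 6 gland markers 2 rose and 1 fell at t0, and 4 rose and 1 fell at t2. At both t4 and t6 1 gland marker rose and 0 fell. The part of these cells in this result was not tested.

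Of 23 other ER folding enzymes 5 rose (21.7%) and 8 fell (34.8%) at t0, beside 23.3% of all genes higher and 22.3% lower. At t2 4 rose (17.4%) and 1 fell (4.35%). The t4 counts were 1 and 1 (4.35% each), and those of t6 were 0 and 3 (13%). The shares of all genes at t2, t4 and t6 are those given above, for these and the next lists. They were led by Erp29 (0.79 ± 0.13, adjusted p = 2e-05) and Dnajc1 (-0.48 ± 0.09, adjusted p = 0.00014) at t0 and Mesdc2 (0.55 ± 0.16, adjusted p = 0.019) and Mogs (0.54 ± 0.16, adjusted p = 0.019) at t2. At t4 they were led by Fkbp14 (-0.95 ± 0.31, adjusted p = 0.03) and Txndc11 (0.42 ± 0.15, adjusted p = 0.041), and at t6 by Ganab (-0.48 ± 0.11, adjusted p = 0.0054) and Dnajc1 (-0.39 ± 0.10, adjusted p = 0.011). Of 19 other ERAD genes 1 rose (5.26%) and 3 fell (15.8%) at t0, both under the shares of all genes. At t2 2 rose (10.5%) and 1 fell (5.26%). For t4 the counts were 1 and 1 (5.26% each), and for t6 they were 1 (5.26%) and 2 (10.5%). The leading ones were Erlec1 (-0.52 ± 0.14, adjusted p = 0.0032) and Ube2g2 (0.48 ± 0.13, adjusted p = 0.0034) at t0, and Erlec1 (-0.57 ± 0.15, adjusted p = 0.0073) and Nploc4 (0.47 ± 0.13, adjusted p = 0.012) at t2. They were Erlin2 (0.49 ± 0.11, adjusted p = 0.0031) and Edem3 (-0.43 ± 0.15, adjusted p = 0.046) at t4, and Vcp (-0.56 ± 0.11, adjusted p = 0.0017) and Erlin2 (0.45 ± 0.12, adjusted p = 0.015) at t6. Of 18 other sensors and regulators 1 rose (5.56%) and 2 fell (11.1%) at t0, both under the shares of all genes. At t2 1 rose (5.56%) and 3 fell (16.7%). Both counts were the same for t4, and for t6 they were 0 and 2 (11.1%). These included Creb3l1 (-1.69 ± 0.22, adjusted p = 1e-06) and Wfs1 (0.66 ± 0.18, adjusted p = 0.004) at t0 and Wfs1 (0.69 ± 0.19, adjusted p = 0.011) and Mbtps2 (-0.60 ± 0.19, adjusted p = 0.026) at t2. Creb3l1 is also 1 of the 10 goblet cell markers, of which 6 fell at t0, so the 2 counts share this gene. At t4 they included Eif2ak2 (-0.79 ± 0.19, adjusted p = 0.004) and Creb3l2 (-0.60 ± 0.18, adjusted p = 0.018), and at t6 Eif2ak2 (-0.96 ± 0.20, adjusted p = 0.0025) and Creb3l2 (-0.82 ± 0.19, adjusted p = 0.0053).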

How the data were processed

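Tracheal brushings of 28 knockout and 6 wild-type mice were sequenced as poly-A RNA on an Ion Proton instrument, with an RNA integrity number of at least 7, per the labels' protocols. The name of the deposited knockout table gives RPKM, a length-corrected unit. Its values were treated here as estimated counts per gene, because 76.3% of those above 0 are whole within 0.01. They add up to 15625276 to 37609816 per library. This reading was inferred from the values, and all tests rest on it. The submitters' processing notes name STAR 2.4.1d, Bowtie2 2.1.0, Partek and build mm10, and, for the wild-type tables, STAR 2.7.0f, RSEM 1.3.1 and GRCm38. The authors' wild-type tables hold expected counts, TPM and FPKM per gene, as deposited, of which the counts and TPM were used. Symbols were found for 55094 of 55573 wild-type gene IDs (99.1%). The strand used in counting is not given in the sources used here.

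Counts were rounded and tested with edgeR 4.0.16 (quasi-likelihood, robust, TMM scaling) in R 4.3.3, over all 5 groups, for 14847 genes with at least 1 CPM in 5 or more libraries. P-values were adjusted by Benjamini-Hochberg over all of these, at a threshold of 0.05. Alternatives were library totals, DESeq2 1.42.0, no filter, limma 3.58.1 on log2(CPM + 1), haemoglobin genes and Rn45s left out, only the groups compared, 5 libraries left out together, and each library left out in turn. The members, pathway lists and marker lists were chosen with earlier results of these data known. All 32 members are reported: those that passed in at least 1 comparison with baseline by library, the others by range, and for each pathway list up to 2 genes of smallest p that passed per comparison with baseline. The depth of each library sets the counting precision, which is weakest for Trib3, Chac1 and Derl3. Nothing beyond separate mice per library is stated about batches. The p-values measure a difference against the spread between mice within groups. A batch that coincided with a group could not be told apart from it.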

Additional observations from a re-analysis of the deposited data

Results flagged for a closer look

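Within a group of 5 or 6 libraries, 11 of 160 member and group sets (6.88%) had 1 library far from the rest by Dixon's ratio, where chance gives about 1 in 20. Library t4 336 was far above its group in 3 of them, with Ern1 at 45.0 CPM against 24.6 in the nearest library, Herpud1 at 436 against 303 and Chac1 at 6.57 against 2.37. Library t2 339, which had the fewest detected genes, was low for Sdf2l1 (58.6 against 75.9 CPM) and Derl3 (0.0324 against 2.60 CPM, a single count). Library t2 358 was high for Pdia6 (402 against 339 CPM), and t6 368 for Calr (693 against 485 CPM). At t0, 357 was high for Pdia6 (268 against 234 CPM), 359 high for Atf6 (94.7 against 72.4 CPM) and 367 low for Eif2ak3 (27.9 against 39.5 CPM). At baseline, 344 was low for Dnajb11 (50.8 against 61.8 CPM).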

How the results depend on the processing

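Of 8958 member values under an alternative, 8795 kept their side of the threshold, 64 lost it and 99 gained it. The sign differed from that reported in 209 of them, from 52 of 256 member values, and 0 of these passed in either fit. Gains were most frequent for Sdf2l1 and Ern1 from t0 to t6 (11 of 35 alternatives each), Hspa5 (10) and Herpud1 (9) at t4, Xbp1 from t2 to t6 (9) and Sec61b from t0 to t6 (8). Among the counts of members that passed, that at t6 against baseline moved by more than 1.5 times in the most alternatives. It was 2 as reported, 1 with library totals, 5 with DESeq2, 4 with limma, 1 without the 5 libraries named in the report, and 0 to 5 with single libraries left out. The 5 with DESeq2 included a rise, that of Chac1 (1.53, adjusted p = 0.047). The count was 1 without baseline 344, 345, 352 or 356, or t6 349 or 365, 0 without t6 341, 4 without t0 359 or t2 339, and 5 without t6 368. Without baseline 356 both reported members were lost and Ern2 passed (-0.70, adjusted p = 0.046). From t2 to t6 the count was 10, and 6 with only those groups fitted. With single libraries left out the counts were 11 to 13 at t0, 10 to 12 at t2, 6 to 12 at t4, 12 to 14 from t0 to t2, 10 to 14 from t0 to t6, 9 to 11 from t2 to t6, and 20 to 23 over the 5 groups. Without the 5 libraries they were 11 at t0, 12 at t2, 10 at t4, 12 from t0 to t2, 10 from t0 to t6 and 11 from t2 to t6. Library totals moved the share of higher calls among all genes from 51.1% to 69.4% at t0, 56.1% to 80.3% at t2, 51.2% to 71.2% at t4, 51.4% to 72% at t6, 47% to 35.5% from t0 to t6 and 31.6% to 12.6% from t2 to t6. Manf lost its call from t2 to t6 in 8 alternatives (adjusted p up to 0.16) and from t0 to t2 in 5 (up to 0.091), and Hsp90b1 from t0 to t2 in 8 (up to 0.21). Calr from t2 to t6 was lost with only those groups (0.076) and without the 5 libraries (0.068), and Dnajb11 (0.09) and Syvn1 (0.055) with only those groups. Dnajc3 from t0 to t6 was lost with library totals (0.19) and without t6 368 (0.061), and Edem1 without the 5 libraries (0.066). The cause was not tested. Age and time after exposure cannot be told apart. No paired analysis was possible because each mouse gave 1 library and animal numbers are not shared between groups.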
